A study of Mus musculus with 18 samples.

Results

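Laminins are the secreted glycoproteins from which a basement membrane is built. Each laminin is a trimer of 1 alpha, 1 beta and 1 gamma chain, which join inside the cell before the trimer leaves it, and the alpha chain carries most of the sites that integrins and dystroglycan bind. In the developing lung, laminin lines the face of the epithelium that meets the mesenchyme and surrounds vessels, smooth muscle and the mesothelium, and its chains come from both the epithelium and the mesenchyme. The 9 genes described here encode the chains alpha 1 to alpha 5 (Lama1, Lama2, Lama3, Lama4 and Lama5), beta 1 to beta 3 (Lamb1, Lamb2 and Lamb3) and gamma 1 (Lamc1). They were taken by symbol from tables of 23420 rows, and all 9 had 1 row in each of the 3 tables.

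The tables come from bulk RNA-Seq of mouse embryonic lungs in 3 experiments, each with 3 control and 3 mutant libraries. In the Vangl1-2 experiment, at E12.5, the controls were Vangl1-/- and the mutants Vangl1-/-; Vangl2-/-, so both groups lacked Vangl1 and they differed in Vangl2. The Vangl1 allele is a gene trap, and Vangl2 was deleted in all tissues by Sox2-Cre. In the Wnt5a-Dermo1-Cre experiment, at E12.5, the controls were Wnt5a f/+; Dermo1Cre and the mutants Wnt5a f/f; Dermo1Cre, with Cre active in the mesenchyme. In the Wnt5a-Sox9-Cre experiment, at E13.5, the controls were Wnt5a f/+; Sox9Cre and the mutants Wnt5a f/f; Sox9Cre, with Cre active in the epithelium. All Wnt5a controls thus carried Cre and 1 floxed allele. The number of embryos in a library is not given in the sources used here, so that p-values measure only the spread between libraries. Vangl1 and Vangl2 encode membrane proteins of planar cell polarity, and Wnt5a is a ligand of noncanonical Wnt signaling. The comparisons address whether the expression of laminin chains differed when this signaling was lost.

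The values are normalized counts, which are reads on a gene divided by 1 size factor for each library, and rest on 15945393 to 19814346 reads on genes for each library. The markers of both lung compartments were present, with Nkx2-1, the transcription factor of the lung epithelium, at 2100 to 2884 normalized counts and Tbx4, a transcription factor of the lung mesenchyme, at 2967 to 4292. The targeted gene Vangl2 had 277, 406 and 334 normalized counts in the Vangl1-2 controls and 86.5, 79.8 and 89.6 in the mutants. Wnt5a had 472, 430 and 489 in the Wnt5a-Dermo1-Cre controls and 317, 436 and 230 in the mutants, and 473, 453 and 426 in the Wnt5a-Sox9-Cre controls and 442, 362 and 448 in the mutants. The Wnt5a groups overlapped in both experiments, so that Wnt5a did not separate them, and the tables do not show which exons the reads fell on. Control replicate 2 of the Vangl1-2 experiment stood apart from the other controls in 8 of the 9 laminin genes, all but Lamb3. The members' fold changes, the shares that did not overlap and the counts of the reported gene lists are given with and without it. Which of these controls departed from the usual level was not tested, and the fit without replicate 2 is not a corrected one. That library was singled out by the laminin genes themselves, so p-values of that fit are not separate support for them.

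The sequence before the start is shown for 3 genes, chosen by how their levels varied with those of Lamc1. Lama5 and Lamb1 varied closely with Lamc1 across the 18 libraries, and Lamb3 did not. The RefSeq table of mouse promoters (GRCm38.p6) held 5 of the 9 genes. The sequences run 5′ to 3′ along the strand of the gene and hold no base of an annotated exon. Capitals mark the GC box GGGCGG and its reverse complement CCGCCC, letters that Sp family factors are known to bind.
Lama5, 250 bases before its start on the minus strand, chr2:180225860-180226109: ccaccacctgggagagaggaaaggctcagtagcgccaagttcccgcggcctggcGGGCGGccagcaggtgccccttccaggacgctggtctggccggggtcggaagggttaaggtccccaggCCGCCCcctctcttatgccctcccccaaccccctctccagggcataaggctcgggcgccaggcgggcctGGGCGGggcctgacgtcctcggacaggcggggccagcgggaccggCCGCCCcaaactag
Lamb1, 191 bases on the plus strand that end 59 bases before its RefSeq start, chr12:31265043-31265233: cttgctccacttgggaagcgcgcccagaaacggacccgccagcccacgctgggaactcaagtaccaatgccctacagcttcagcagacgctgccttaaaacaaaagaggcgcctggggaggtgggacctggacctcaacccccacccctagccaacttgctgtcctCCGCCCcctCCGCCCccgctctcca
Lamb3, 249 bases on the plus strand before the first of its RefSeq starts in the table, chr1:193301744-193301992: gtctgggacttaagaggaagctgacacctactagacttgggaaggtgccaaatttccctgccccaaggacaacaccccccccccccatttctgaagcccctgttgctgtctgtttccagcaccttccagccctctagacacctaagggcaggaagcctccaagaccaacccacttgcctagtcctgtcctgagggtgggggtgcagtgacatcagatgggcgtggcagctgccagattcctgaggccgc
On both strands, the Lama5 sequence holds 4 GC boxes, the Lamb1 sequence 2 and the Lamb3 sequence 0. The sequences of the other members in the table, Lama2 (250 bases) and Lamb2 (124 bases), also hold 0. Over 18 libraries their r with Lamc1 was 0.960 and 0.876, against 0.989 for Lamb1, 0.984 for Lama5 and -0.00463 for Lamb3. Whether the number of boxes relates to the likeness to Lamc1 was not tested. Of the 32851 promoters in the table, 4.09% hold 4 or more in a window of 250 bases, 9.21% hold 2 or more in the first 191 bases and 32.6% hold 1 or more in the first 249. The Lama5 sequence is 72.4% G and C with 19 CpG pairs, and the Lamb3 sequence 58.6% with 2. A match is a description of these letters only.

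Per length of transcript, the gene for gamma 1 and the gene for beta 1 were the most abundant of the 9 in all 3 control groups. Levels between genes are given as RPKM, here reads on a gene scaled to its exon length and to the reads on all genes of the library. The 3 tables were normalized separately, and levels set across them are a description. Lamc1, whose chain is shared by most laminins, stood at an RPKM of 58.8 ± 25.6 (SD, n = 3) in the Vangl1-2 controls, 97.0 ± 0.932 in the Wnt5a-Dermo1-Cre controls and 95.8 ± 3.93 in the Wnt5a-Sox9-Cre controls. Lamb1, the beta chain of the main embryonic laminins, stood at 49.8 ± 17.2, 80.1 ± 3.09 and 84.97 ± 3.17. The third was Lama4, the alpha chain of blood vessels and mesenchyme, at 24.7 ± 9.37, 38.9 ± 0.951 and 40.0 ± 1.81. By library, Lamc1 stood at 50.4, 87.6 and 38.5 in the Vangl1-2 controls and at 90.1 to 92.9 in the mutants. No Wnt5a library was under 89.5, so that Vangl1-2 control replicates 1 and 3 were the lowest of all libraries.

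The order of the levels was the same in both Wnt5a control groups: Lamc1, Lamb1, Lama4, Lama5, Lamb2, Lama3, Lamb3, Lama2 and Lama1. Neighbours in that order did not overlap, except for Lama5 and Lamb2 in the Wnt5a-Dermo1-Cre controls and Lama2 and Lama1 in the Wnt5a-Sox9-Cre controls. Lama1, whose chain forms the first laminin of the early embryo, was the lowest at 3.20 ± 0.176 and 3.67 ± 0.220 RPKM. Lama2, the alpha chain of muscle, was next at 4.01 ± 0.0913 and 4.06 ± 0.272. In the Vangl1-2 controls, which had the wider spread, 5 neighbouring pairs overlapped: Lamc1 and Lamb1, Lamb2 and Lama5, Lama5 and Lama3, Lama3 and Lamb3, and Lama1 and Lama2. Set library by library, the first gene of each pair was the higher in every control, except for Lama3 and Lamb3. The same held for Lama2 over Lama1 in the Wnt5a-Sox9-Cre controls, but not for Lama5 over Lamb2 in the Wnt5a-Dermo1-Cre controls. Lamc3, a gamma chain gene outside the 9, lay lower, at 0.308 ± 0.206 to 0.704 ± 0.0131 RPKM over the 3 control groups.

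In the Vangl1-2 experiment, 8 of the 9 genes had a higher mean in the mutants and Lamb3 did not, but no member passed the test across all genes. The ratio of means, mutant over control, ran from 1.30 for Lamb2 and Lama4 to 1.83 for Lama2, and was 0.991 for Lamb3. The median log2 fold change of the 9 was 0.61, against -0.01 over all 14303 genes tested. By limma, 0 of 9 had an adjusted p under 0.05, and 0.00699% of all genes did, which is 1 gene, Vangl2. At an unadjusted p under 0.05, 6 of 9 were higher in the mutants, against 12% of all genes. In bulk RNA, more cells of a type that makes laminin and more laminin RNA in each cell cannot be told apart.

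**Figure D1:**
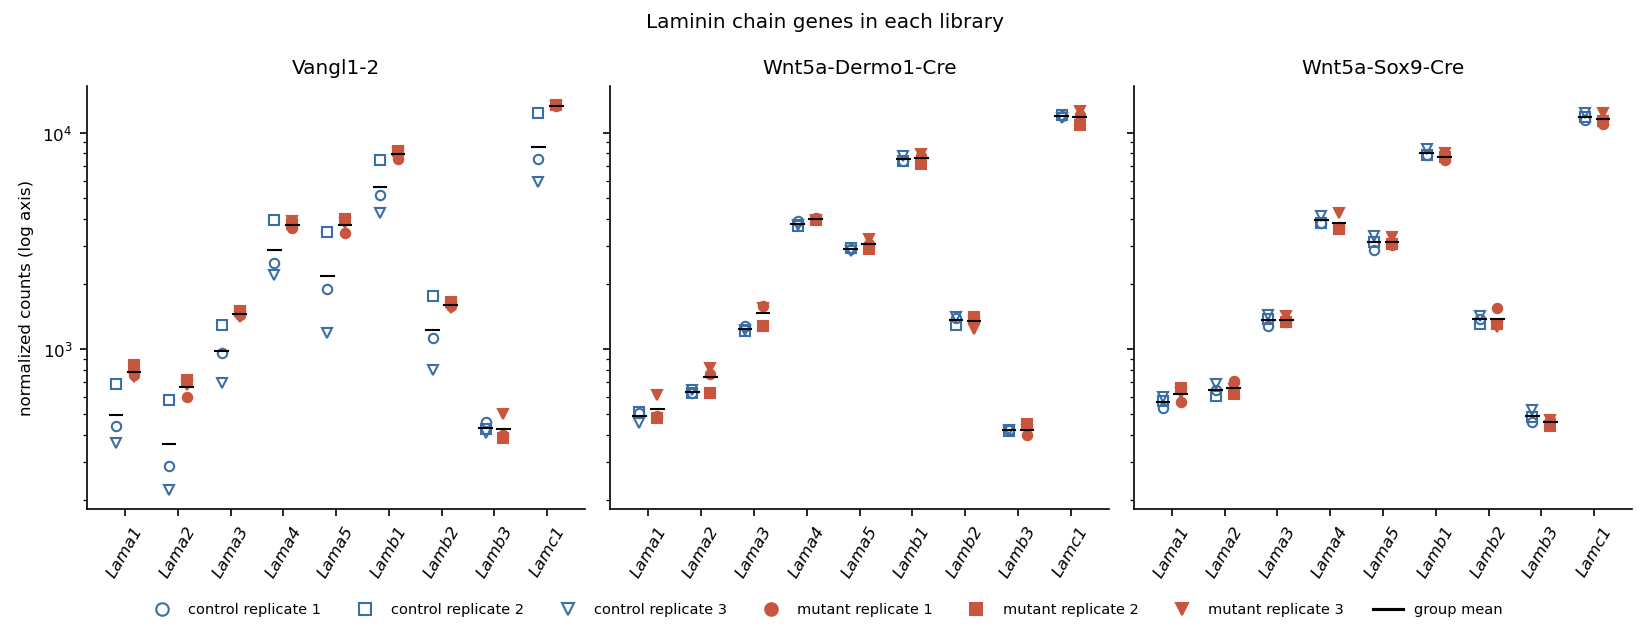
Normalized counts (log axis) of the 9 laminin chain genes in each library of the 3 experiments. Open symbols are controls, filled symbols mutants, the symbol's shape gives the replicate number and the bar is the mean of a group. In the Vangl1-2 panel, control replicate 2 lies near the mutants in 8 genes, as for Lamc1 at 12330 against 13217 to 13374, while the Lamb3 groups overlap.

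The gamma chain had the narrowest mutant group relative to its mean. Lamc1, at chr1:153218922-153332786 on the minus strand of GRCm38, had 7565, 12330 and 5932 normalized counts in the Vangl1-2 controls and 13217, 13374 and 13292 in the mutants. All mutant libraries were above all controls, control replicate 2 was within 1.08-fold of the mutant mean, and it was 1.83-fold above the mean of the other controls. The log2 fold change was 0.70 with a standard error of 0.23 (limma, adjusted p = 0.233).

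Among the alpha chains, Lama5, the chief alpha chain of epithelial basement membranes in the lung (chr2:180176373-180225859, minus strand), had 1881, 3459 and 1181 normalized counts in the controls and 3434, 3993 and 3829 in the mutants. Control replicate 2 lay within the range of the mutants, so that the groups overlapped, and the log2 fold change was 0.92 with a standard error of 0.33 (limma, adjusted p = 0.233). Lama2 (chr10:26980036-27619758, minus strand) had 287, 580 and 223 in the controls and 597, 715 and 680 in the mutants. Its mutants were all higher than its controls, and its log2 fold change of 0.99 was the largest of the 9 (limma standard error 0.31, adjusted p = 0.233). Exon bases of Lama2 overlap the antisense gene Gm48084, and whether the counting used strand is not given in the sources used here.

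Lama1 (chr17:67697259-67822647, plus strand) had 440, 684 and 366 normalized counts in the controls and 757, 844 and 742 in the mutants. Lama3, which encodes the alpha chain of the anchoring laminin of epithelia, had 953, 1283 and 697 in the controls and 1433, 1502 and 1408 in the mutants. Both had groups that did not overlap, with control replicate 2 the highest control in each. Lama4 (chr10:38965515-39110188, plus strand) had 2490, 3953 and 2188 in the controls and 3621, 3756 and 3881 in the mutants, and here control replicate 2 was above every mutant. The log2 fold changes were 0.70 for Lama1, 0.61 for Lama3 and 0.43 for Lama4 (limma, adjusted p = 0.233, 0.233 and 0.256).

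The beta chains split. Lamb1 (chr12:31265234-31329644, plus strand) had 5129, 7446 and 4227 normalized counts in the controls and 7552, 8191 and 8023 in the mutants, with no overlap. Lamb2, the beta chain of vessels, nerve and muscle (chr9:108479736-108490530, plus strand), had 1128, 1751 and 798 in the controls and 1584, 1640 and 1547 in the mutants, with control replicate 2 above every mutant. Lamb3, the beta chain of the anchoring laminin (chr1:193207699-193343878, plus strand), had 461, 426 and 409 in the controls and 398, 385 and 501 in the mutants, which overlapped fully, and the log2 fold change was -0.02 (95% confidence interval -0.32 to 0.28, limma adjusted p = 0.932). The log2 fold changes of Lamb1 and Lamb2 were 0.54 and 0.45 (limma, adjusted p = 0.233 and 0.300).

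Over the 9 genes, the mutants were all above the controls in 5 (Lama1, Lama2, Lama3, Lamb1 and Lamc1), against 13.6% of all genes. For each of these the two-sided exact permutation p was 0.1, the smallest that 3 against 3 libraries can give. Control replicates 1 and 3 were below every mutant in 8 of 9 genes. The share of all genes by this rule was not counted, so the count does not set the laminin genes apart from other genes. Without control replicate 2, 8 of 9 genes rose with an adjusted p under 0.05 by limma, all but Lamb3, but so did 21.7% of all genes, 3069 in number, and 3111 others fell. The log2 fold changes of the 8 then ran from 0.68 for Lama4 to 1.39 for Lama2, and the largest adjusted p among them was 0.00103. Replicate 2 was singled out because it stood apart in these same 8 genes, so these p-values are not separate support.

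The change in the Vangl1-2 experiment rose with the length of the transcript over all genes, and the laminin chains are long, with the longest transcript of a member between 4867 bases for Lamb3 and 11388 for Lama5. Across the 14186 genes with a known length, Spearman's coefficient between log2 fold change and length was 0.678, a description across genes, which are not independent. Genes at least as long as the shortest member numbered 3540, had a median log2 fold change of 0.31 and were above 0 in 88.0%. Set against the genes of like length, in 20 bins of transcript length, 5 members were above the interquartile range of their bin, 3 were within it and Lamb3 was below it. Lama2 was above 93.8% of the genes of its bin, Lamc1 above 92.8%, Lamb1 above 91.8% and Lama5 above 91.1%.

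**Figure D2:**
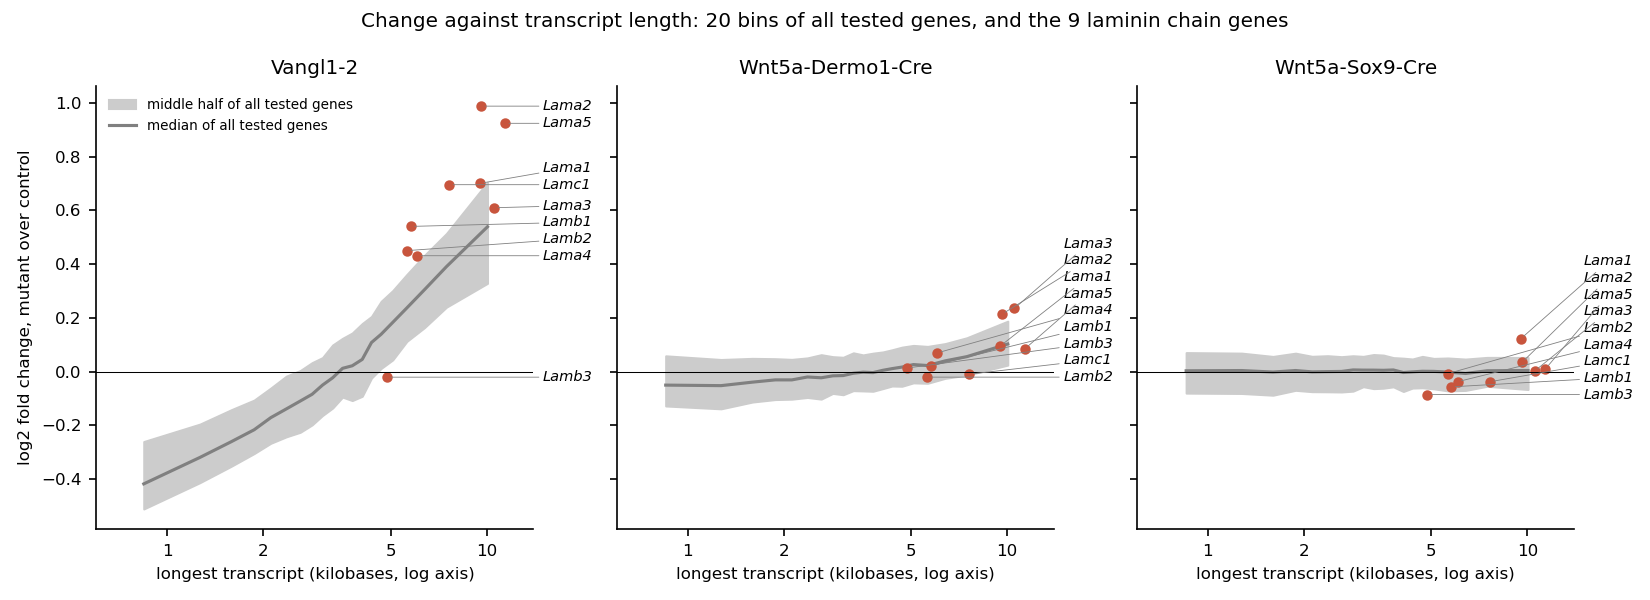
Log2 fold change, mutant over control, against the longest transcript in kilobases (log axis) in the 3 experiments. The grey line and band are the median and the interquartile range of all tested genes in 20 bins of length, and the points are the 9 laminin chain genes. In the Vangl1-2 panel the grey line climbs with length, and Lama2, Lama5, Lamc1, Lamb1 and Lamb2 lie above the band, whereas in the Wnt5a-Sox9-Cre panel the line is flat.

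After a spline on transcript length had been subtracted within every library, the members of the Vangl1-2 experiment had a median log2 fold change of 0.25 in place of 0.61, and 8 of 9 remained above 0. The values were 0.53 for Lama2, 0.41 for Lama5, 0.33 for Lamc1 and 0.29 for Lamb1, and 0.12 for Lama3, and -0.19 for Lamb3. No adjusted p was under 0.537 (limma). With the trend removed and control replicate 2 left out as well, a choice made after the data were seen, 6 of 9 rose past the threshold (Lama2, Lama4, Lama5, Lamb1, Lamb2 and Lamc1), against 5.30% of all genes. Lama1, Lama3 and Lamb3 then had log2 fold changes of 0.31, 0.13 and -0.28 (limma, adjusted p = 0.0674, 0.463 and 0.152).

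**Figure D3:**
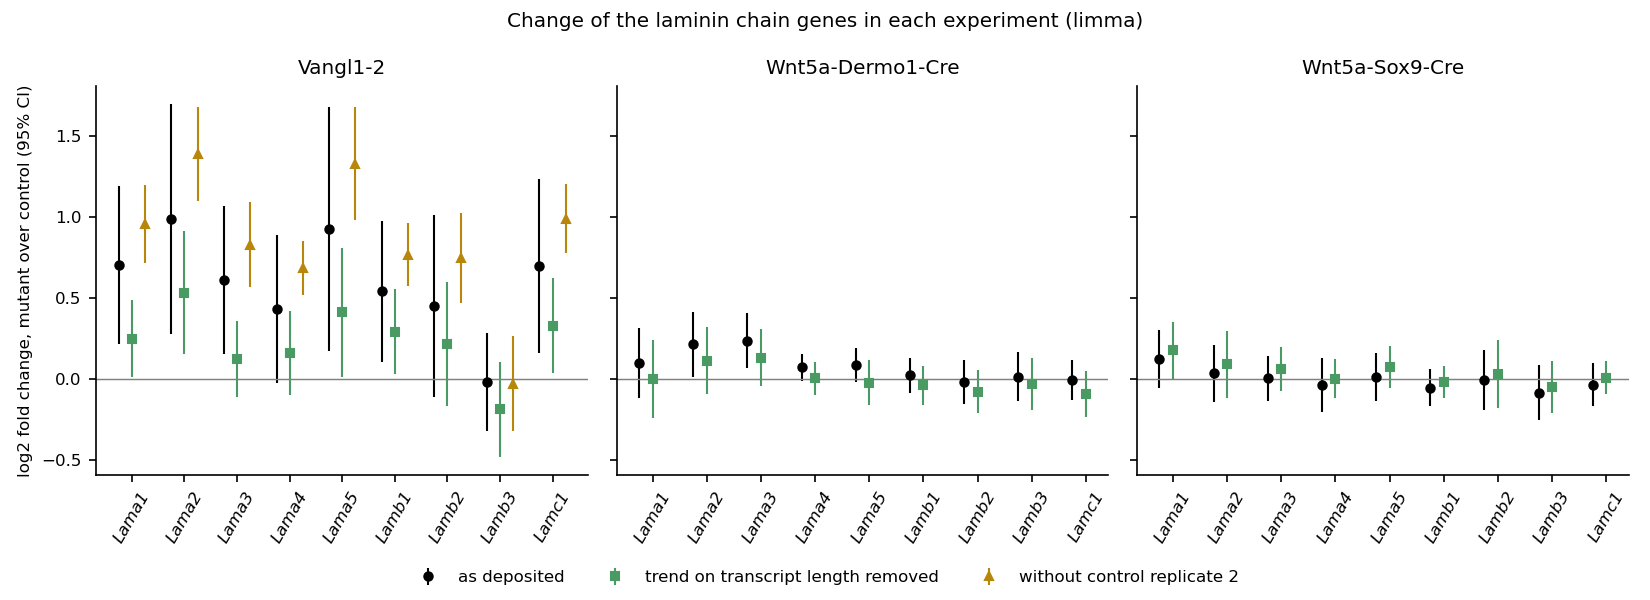
Log2 fold change, mutant over control, of the 9 laminin chain genes with 95% confidence intervals from limma. Circles are the values as deposited, squares the values after removal of the trend on transcript length and, in the Vangl1-2 panel only, triangles those without control replicate 2. The circle of Lamb3 lies at -0.02 in Vangl1-2, and every circle lies between -0.09 and 0.24 in both Wnt5a panels.

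Marker genes of other cells were read beside these values. In the Vangl1-2 experiment, the summed level of 6 mesenchyme markers was 43269 to 96785 normalized counts in the controls, highest in control replicate 2, and 71991 to 90813 in the mutants. Col1a1 and Col3a1 made most of that sum, with 35260 and 46785 in control replicate 2. All 6 had a log2 fold change above 0, with a median of 0.32. Of these, 2 had an unadjusted p under 0.05 by limma and were higher, against 12% of all genes. The sum of 7 epithelium markers was 13545 to 16284 in the controls and 13027 to 15797 in the mutants. The sum of 4 smooth muscle markers was 7869 to 11588 in the controls and 5986 to 8914 in the mutants, and that of 6 cardiomyocyte markers 737 to 2099 and 213 to 4080. Of the smooth muscle markers, 3 of 4 had an unadjusted p under 0.05 and a lower level in the mutants, with a median log2 fold change of -0.56 over the list. Of all 14303 genes, 1224 were lower at that level. The groups overlapped in all 4 sums, and all markers of these lists were above 0 in every library. The 5 endothelium markers summed to 8315 to 10309 and 9926 to 10788, the 4 mesothelium markers, of which 2 of the 3 tested were higher at that level, to 1894 to 2735 and 2678 to 4562, the 4 neuron markers to 386 to 638 and 528 to 877, and the 4 glia markers to 219 to 380 and 195 to 384. Of 4 erythroid markers, 3 were in the tables, Hba-a1 was at 0 in every library and the sums were 641 to 781 and 490 to 739. Without control replicate 2, 5 of 6 mesenchyme markers rose with an adjusted p under 0.05 by limma, against 21.7% of all genes. Their median was 0.53. At that level, 4 of 7 epithelium and 3 of 4 smooth muscle markers fell, as did 3111 of all 14162 genes. Of the other lists, 3 endothelium, 2 mesothelium and 2 neuron markers rose, and 1 endothelium marker fell. No cardiomyocyte, glia or erythroid marker passed. The part of these cells in the laminin values was not tested.

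In the Wnt5a-Dermo1-Cre experiment the laminin genes lay close together in both groups, and the largest difference was in Lama3. Lama3 had 1275, 1213 and 1223 normalized counts in the controls and 1573, 1275 and 1538 in the mutants. The mutants were all above the controls, although mutant replicate 2 and control replicate 1 both rounded to 1275. The log2 fold change was 0.24 with a standard error of 0.08 (limma, adjusted p = 0.375), or 0.13 after correction for length. Exon bases of Lama3 overlap the antisense gene Gm29200.

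Lama2 had 627, 625 and 643 normalized counts in the Wnt5a-Dermo1-Cre controls and 765, 627 and 818 in the mutants, with mutant replicate 2 among the controls and a log2 fold change of 0.21 (limma, adjusted p = 0.477). Lama4 had 3880, 3700 and 3751 in the controls and 4033, 3927 and 3929 in the mutants, without overlap but with a log2 fold change of only 0.07. The other 6 members had log2 fold changes between -0.02 and 0.10. Lamc1 was at 11888 ± 196 in the controls and 11829 ± 884 in the mutants, and its 95% confidence interval ran from -0.13 to 0.11 (limma, log2).

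By limma, 0 of 9 members had an adjusted p under 0.05 in the Wnt5a-Dermo1-Cre experiment, against 0.0140% of all 14277 genes. At an unadjusted p under 0.05, 2 of 9 were higher (Lama2 and Lama3), against 5.42% of all genes, and 2 of 9 had mutants all above controls (Lama3 and Lama4), against 7.65%. The median log2 fold change of the 9 was 0.07, against 0.00 over all genes. With the trend on length removed it was -0.03, against -0.02 over all genes. Spearman's coefficient between change and length was 0.249 over 14165 genes, again a description across genes. At an unadjusted p under 0.05, 4 of 4 smooth muscle markers and 4 of 7 epithelium markers were lower in the mutants, and 3 of 4 glia markers higher. Of all 14277 genes, 679 were lower and 774 higher at that level. All 4 neuron markers were higher at that level, summing to 331 to 597 normalized counts in the controls and 716 to 1534 in the mutants, and the 7 epithelium markers summed to 14074 to 14859 and 13257 to 13450. The 6 mesenchyme markers summed to 78787 to 90962 and 71480 to 78682. Smooth muscle markers summed to 10356 to 14428 and 6872 to 11198, and the highest mutant was mutant replicate 2. The part of these differences in the laminin values was not tested.

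In the Wnt5a-Sox9-Cre experiment no member passed the test, and the groups overlapped in all 9. Lama1, with the largest difference, had 530, 571 and 599 normalized counts in the controls and 566, 659 and 626 in the mutants, which overlapped, and a log2 fold change of 0.12 (limma, 95% confidence interval -0.06 to 0.30, adjusted p = 0.9999). Lamb3 had 458, 484 and 523 in the controls and 466, 442 and 471 in the mutants, a log2 fold change of -0.09. The other 7 lay between -0.06 and 0.03, and the intervals of all 9 lay between -0.25 and 0.30.

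By limma, 0 of 9 members had an adjusted p under 0.05 and 0% of all 14293 genes did, with 557 genes at an unadjusted p under 0.05, 0 genes called by edgeR and 9 called by DESeq2, of which 0 were members. At an unadjusted p under 0.05, 0 of 9 were higher, against 1.08% of all genes, and 0 of 9 had mutants all above controls, against 4.42%. The median log2 fold change of the members was -0.01, against 0.00 over all genes. Spearman's coefficient between change and length was -0.02 over 14178 genes. Cardiomyocyte markers summed to 2705 to 11144 normalized counts in the controls and 212 to 2633 in the mutants, and mesothelium markers to 2324 to 2751 and 1747 to 2302, while the laminin groups overlapped.

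The difference between the changes was tested directly in 1 fit over the 12 libraries of each pair of experiments. Between Vangl1-2 and Wnt5a-Dermo1-Cre, 0 of 9 members differed by limma (smallest adjusted p = 0.381), against 0.00711% of all genes. Between Vangl1-2 and Wnt5a-Sox9-Cre, 0 of 9 differed (smallest adjusted p = 0.299), against 0.00712% of all genes, and between the Wnt5a experiments 0 of 9 (smallest adjusted p = 0.936), against 0%. The log2 fold change of Lamc1 was 0.71 higher in the Vangl1-2 than in the Wnt5a-Dermo1-Cre experiment (95% confidence interval 0.13 to 1.28), and that of Lama3 was 0.37 higher (-0.13 to 0.88). Without control replicate 2 of Vangl1-2, a fit added after the data were seen, 8 of 9 members differed from each Wnt5a experiment, against 33.2% and 34.9% of all genes. Allele and table differed along with the experiment, and for the Wnt5a-Sox9-Cre experiment the stage as well, and cannot be told apart from it.

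Lama4 and Lama5 were the largest of the alpha chains per kilobase in all 3 control groups, while the order of Lama1 and Lama2 was not the same. Lama4 made 57.0% ± 3.72 of the alpha chain RNA in the Vangl1-2 controls, 56.4% ± 0.530 in the Wnt5a-Dermo1-Cre controls and 55.3% ± 0.774 in the Wnt5a-Sox9-Cre controls (SD, n = 3). Lama5 followed with 21.7% ± 3.85, 22.8% ± 0.428 and 23.2% ± 0.672, Lama3 with 10.9% ± 1.04, 10.4% ± 0.0952 and 10.8% ± 0.283. Lama1 made 6.22% ± 0.273, 4.64% ± 0.257 and 5.07% ± 0.119, and Lama2 4.23% ± 0.578, 5.81% ± 0.170 and 5.60% ± 0.272, so that Lama1 was above Lama2 in the Vangl1-2 controls only. Of the beta chain RNA, Lamb1 made 76.03% ± 0.766, 79.9% ± 0.541 and 80.3% ± 0.154.

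**Figure D4:**
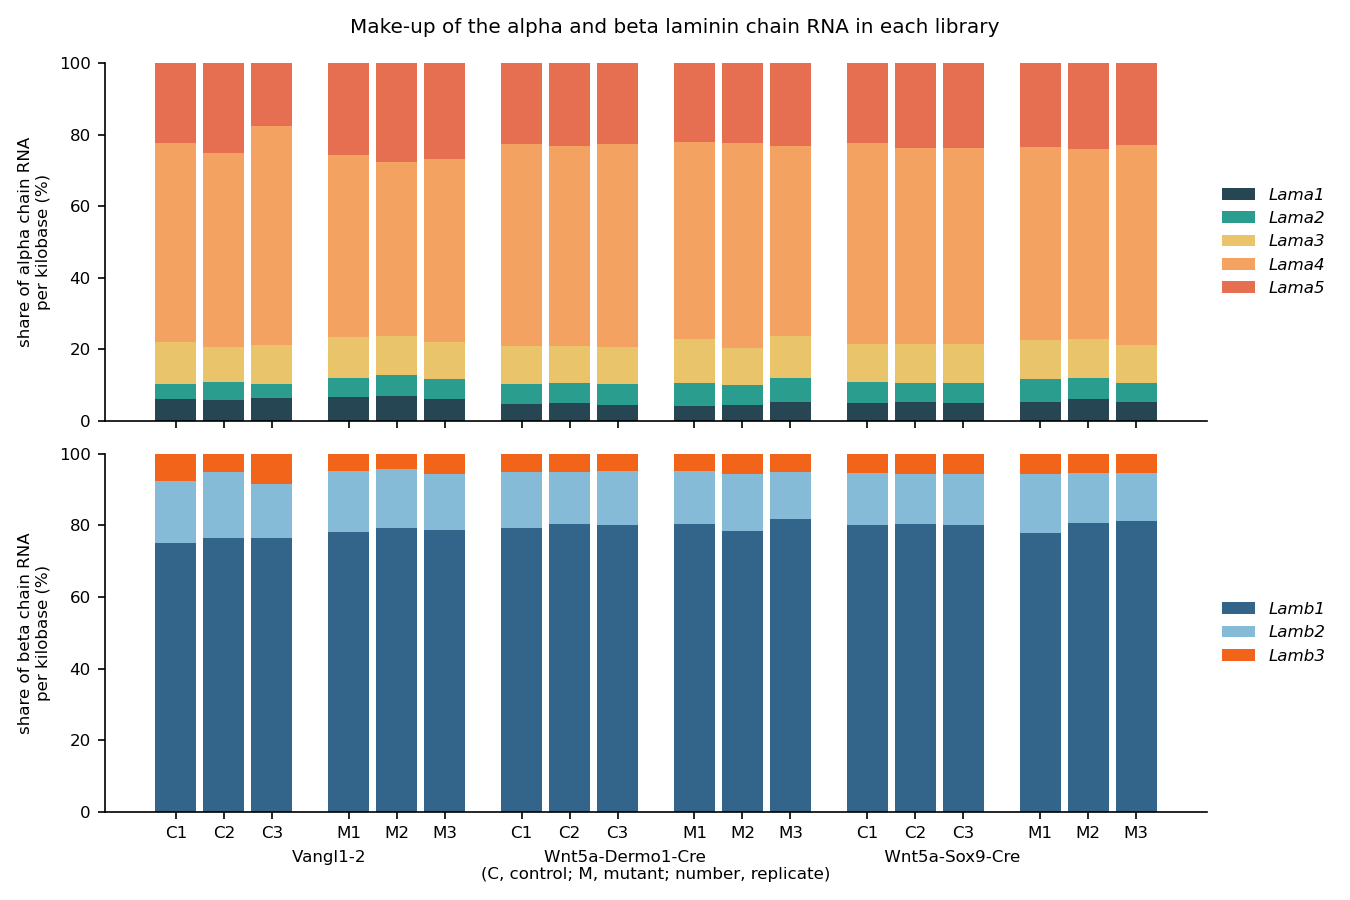
Share, in percent, of each alpha chain in the sum of the 5 alpha chains and of each beta chain in the sum of the 3 beta chains, by reads per kilobase of exon, as stacked bars for each of the 18 libraries. Lama4 and Lamb1 are the largest shares in every library, and in Vangl1-2 the share of Lama5 is 25.7% to 27.5% in the mutants and 17.5% to 25.1% in the controls.

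Among the shares of the 5 alpha chains and the 3 beta chains, 4 had groups that did not overlap in the Vangl1-2 experiment. The shares of a family add to a fixed whole, so that they are not separate results. Lama5 made 22.3%, 25.1% and 17.5% of the alpha chain RNA in the controls and 25.7%, 27.5% and 26.8% in the mutants. Lama4 made 55.6%, 54.1% and 61.2% in the controls and 51.01%, 48.8% and 51.1% in the mutants. Both sets of shares did not overlap, in opposite directions, although control replicate 2 was the control nearest to the mutants in each. The mutant share of Lama5 was 5.01 percentage points higher, but 2.95 without control replicate 3 and 6.75 without control replicate 2. That of Lama4 was lower by a difference of -6.66 points, and of -4.55 and -8.07 without those libraries. Lama2 was at 4.23% ± 0.578 in the controls and 5.48% ± 0.276 in the mutants, and Lamb1 at 76.03% ± 0.766 and 78.7% ± 0.510 of the beta chain RNA, both without overlap, and without control replicate 2 these differences were 1.58 and 2.87 points in place of 1.25 and 2.70. The two-sided exact permutation p was 0.1 for each of these 4 shares, the smallest possible, so none could pass a threshold of 0.05. Lama4 is shorter than Lama5 and Lama2, and the part of the trend on length in these shares was not tested.

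In the Wnt5a experiments, the only share with groups that did not overlap was that of Lama1 in the Wnt5a-Sox9-Cre experiment, at 5.07% ± 0.119 in the controls and 5.57% ± 0.553 in the mutants (two-sided exact permutation p = 0.1). In Wnt5a-Dermo1-Cre the share of Lama3 was 10.4% ± 0.0952 in the controls and 11.4% ± 0.856 in the mutants, which overlapped (exact permutation p = 0.2). The sum of the alpha chains over Lamc1, per kilobase, was 0.711 ± 0.0155 in the Wnt5a-Dermo1-Cre controls and 0.768 ± 0.0281 in the mutants, which were all higher. In the Vangl1-2 experiment the mutants were all lower in that ratio, with 0.751 ± 0.00770 in the controls and 0.708 ± 0.0266 in the mutants, and in the ratio of the beta chains to Lamc1, with 1.14 ± 0.0965 and 0.987 ± 0.0302. The two-sided exact permutation p was 0.1 for each of these 3 ratios.

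Across the 18 libraries, with each table centred on its mean, Lamb1 was the gene most like Lamc1 among the genes tested in every table, with Pearson's r = 0.989 and Spearman's rho = 0.948 over 18 libraries. The next were Igf2r, which encodes a receptor for Igf2 and mannose 6-phosphate, and Prrc2b, with r = 0.987 and 0.986. Lama5 stood in rank 7 with r = 0.984, and Lamb3 had r = -0.00463. Without the 2 libraries farthest from the median of Lamc1, r was 0.960 for Lamb1 and 0.954 for Lama5. These are descriptions, since the libraries share tables, groups and, in Vangl1-2, the trend on length. Over the 12 Wnt5a libraries alone, r with Lamc1 was 0.807 for Lamb1, 0.748 for Lama5 and 0.124 for Lamb3, and Lamb1 and Lama5 then stood in ranks 45 and 184. Lamb2 had r = 0.876 over 18 libraries and -0.55 over those 12.

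Lamc3, which encodes the gamma 3 chain, was read beside the members. In the Vangl1-2 experiment it was low, with 26.9, 58.7 and 17.9 normalized counts in the controls and 71.5, 82.8 and 65.0 in the mutants. The groups did not overlap, control replicate 2 was the highest control, and the log2 fold change was 1.22 (limma, adjusted p = 0.233), or 1.69 without control replicate 2 (limma, adjusted p = 0.000654). Exon bases of Lamc3 overlap the antisense gene Gm13441. In the Wnt5a-Dermo1-Cre and Wnt5a-Sox9-Cre experiments the log2 fold changes were -0.13 and -0.09, and the groups overlapped (limma, adjusted p = 0.847 and 0.9999).

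Laminin reaches cells through integrins, dystroglycan and Bcam. Of 9 receptor genes, 0 had an adjusted p under 0.05 in each experiment. In Vangl1-2, 4 were higher at an unadjusted p under 0.05, against 12% of all genes, and 0 lower, with a median log2 fold change of 0.36. After correction for length 5 were higher at that level, against 595 of all 14186 genes, and the median was 0.24. Without control replicate 2, 6 of 9 rose with an adjusted p under 0.05 by limma, against 21.7% of all genes, with a median of 0.58. Itga3, an integrin alpha subunit that binds laminin with alpha 5 and alpha 3 chains, had the smallest p, with a log2 fold change of 0.58 (limma, adjusted p = 0.233). Itgb1, the beta subunit they share and the most abundant of the list at a mean of 13711 normalized counts, had 0.12, and Dag1, which encodes dystroglycan, 0.49 (limma, adjusted p = 0.481 and 0.233). In Wnt5a-Dermo1-Cre and Wnt5a-Sox9-Cre, 0 were higher and 0 lower at an unadjusted p under 0.05. The smallest p there were those of Itga2 in the former, with 0.31 (adjusted p = 0.506), and of Dag1 in the latter, with -0.11 (adjusted p = 0.9999), both by limma on the log2 scale. Itgb1 had -0.01 and -0.03.

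Of 13 basement membrane partners, among them collagen IV chains, nidogens and proteoglycans, 0 had an adjusted p under 0.05 in each experiment. In Vangl1-2, 11 of 13 were higher at an unadjusted p under 0.05, against 12% of all genes, and 0 lower, and the median log2 fold change was 0.58. After correction for length 4 of 13 were higher at that level, against 595 of all 14186 genes, and the median was 0.27. Without control replicate 2, 12 of 13 rose with an adjusted p under 0.05 by limma, against 21.7% of all genes, with a median of 0.86. Npnt, a ligand of integrin alpha 8 beta 1, had the smallest p, with a log2 fold change of 0.80 (limma, adjusted p = 0.233). Col4a1 and Col4a2, the most abundant of the list, had 0.56 and 0.54. In Wnt5a-Dermo1-Cre, 1 was lower, Col18a1, whose product carries endostatin, with -0.23 (limma, adjusted p = 0.194). In Wnt5a-Sox9-Cre, 1 was lower, Nid2, which links laminin to collagen IV, with -0.22 (limma, adjusted p = 0.9999). Col4a1 had log2 fold changes of -0.03 and -0.06 in the 2 Wnt5a experiments.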

How the data were processed

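The authors trimmed reads with Trim Galore, aligned them with HISAT2 to mm10 and counted them with featureCounts, per the labels, with no versions given. The deposited signal is reads on a gene divided by 1 size factor for each library; columns of the authors' own log2 fold changes and p-values were not used. In all 18 libraries 100% of values were whole multiples of 1 step (tolerance 0.001, largest deviation 3.7e-05), so reads were recovered for the alternatives.

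Each table was fitted on its own with limma (version 3.58.1, R 4.3.3) on log2 of the normalized count plus 1, with a mean-variance trend. A gene was tested where 3 or more of the 6 libraries reached 10 normalized counts, and p-values were adjusted by Benjamini-Hochberg over all of them at a threshold of 0.05. Fold changes are on that log2 scale and understate those of low genes. Alternatives were edgeR (4.0.16) and DESeq2 (1.42.0) on recovered reads, other scalings and filters, a trend on transcript length removed by a spline of 4 degrees of freedom, a replicate block and each library left out. Shares and single values were compared by exact permutation tests (Python 3.11.15). Lengths came from GENCODE M21 (GRCm38) for 98.4% of names: exons of protein-coding basic transcripts for levels, and the longest transcript for the trend. All 9 members were named, and other genes from lists by a fixed rule (adjusted p under 0.05, or else the smallest p and the highest means). The members and lists were chosen with earlier results of these data known. Only the reported limma fit of each experiment was tested on simulated data. It recovered 75.8% of 2-fold changes in Vangl1-2, 80.0% in Wnt5a-Dermo1-Cre and 80.8% in Wnt5a-Sox9-Cre. For 1.5-fold changes it recovered 12.4%, 55.6% and 61.2%, so that most of that size were missed in the simulated data for Vangl1-2. These percentages describe the simulated data only. Recovery in the measured libraries, which in Vangl1-2 carry a trend on transcript length, was not tested. Some genes of the lists are not reported here.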

Additional observations from a re-analysis of the deposited data

How the results depend on the processing

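In Vangl1-2, members past the threshold numbered 0 in the reported fit and 0 to 8 with each library left out, the 8 coming from the fit without control replicate 2; they numbered 6 with that library out and the trend on transcript length removed. Genes past it numbered 1, against 20 by DESeq2, 0 with scaling to total reads, 0 with no mean-variance trend, 0 with the replicate block, 2298 with length and control replicate 2 handled together and 0 to 6180 with each library left out. In Wnt5a-Dermo1-Cre 2 genes passed, against 100 by DESeq2, 0 with no trend, 1 with length removed, 16 with the replicate block and 0 to 52 with each library left out. In Wnt5a-Sox9-Cre 0 passed, against 9 by DESeq2 and 0 to 13 with each library left out. No member passed in either Wnt5a experiment under any alternative. The replicate numbers did not pair the libraries, since same-numbered deviations correlated from -0.22 to 0.30, and the replicate block changed no member's call.

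The members' median log2 fold change was 0.61, 0.07 and -0.01 in the 3 experiments, 0.25, -0.026 and 0.028 with the trend on length removed, which turned the sign in both Wnt5a experiments, and 0.39 to 0.83, 0.04 to 0.09 and -0.05 to 0.02 with each library left out. With length removed, the median over all genes also moved, to -0.018 in Wnt5a-Dermo1-Cre and 0.038 in Wnt5a-Sox9-Cre. The turn of sign is thus not particular to the members. Members near 0 changed sign. With length removed these were, in Wnt5a-Dermo1-Cre, Lama1 (-0.0050), Lama5 (-0.026), Lamb1 (-0.042) and Lamb3 (-0.034), and, in Wnt5a-Sox9-Cre, Lamb2 (0.028) and Lamc1 (0.0065). With scaling to total reads they were Lamb3 in Vangl1-2 (0.014), Lamc1 in Wnt5a-Dermo1-Cre (0.00038) and Lama3 in Wnt5a-Sox9-Cre (-0.0032). The cause of each change was not tested beyond the setting's own construction.

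With each library left out, members near 0 also changed sign. The log2 fold change of Lamb3 ran from -0.14 to 0.050 in Vangl1-2. In Wnt5a-Dermo1-Cre that of Lama1 ran from -0.015 to 0.16, Lamb1 from -0.0083 to 0.066, Lamb2 from -0.059 to 0.039, Lamb3 from -0.028 to 0.053 and Lamc1 from -0.053 to 0.052. In Wnt5a-Sox9-Cre that of Lama2 ran from -0.020 to 0.081, Lama3 from -0.045 to 0.040, Lama4 from -0.12 to 0.012, Lama5 from -0.045 to 0.063 and Lamb2 from -0.099 to 0.048.

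Without control replicate 2 of Vangl1-2, 8 of 9 members differed in change between Vangl1-2 and each Wnt5a experiment, against 0 with all libraries and 0 with the trend on length removed. Depth limited no member, whose lowest value in any library was 223 normalized counts, and the number of libraries limited the exact tests to p = 0.1.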
